A study of Mus musculus with 26 samples.

Results

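The cytosolic phospholipase A2 group IV family was examined across its 6 genes, *Pla2g4a*, *Pla2g4b*, *Pla2g4c*, *Pla2g4d*, *Pla2g4e* and *Pla2g4f*, which were taken by symbol from the 56738 gene symbols of the count table. All 6 were listed. The libraries were made from primary keratinocytes of 2-day-old C57BL/6NJ neonates, of which 5 were WT and 8 were homozygous for a CRISPR-Cas9 allele of *Pla2g4d* (C57BL/6NJ-Pla2g4d em1) and are called KO. This is a germline allele that all cells carry, and the KO mice descend from a single line that was crossed back to C57BL/6NJ and then bred as homozygotes. Cells of each mouse grew for 4 days at 0.06 mM CaCl2. They then spent 24 h without cytokines (basal) or with IL17A at 20 ng/ml plus TNFα at 20 ng/ml, which gave 26 libraries from 13 mice. Basal and treated libraries of a genotype with the same number in their titles were taken as cultures of the same mouse.

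Enzymes of this family cut fatty acids from membrane phospholipids with a serine and an aspartate at the active site. Most members also have a C2 domain, a module that binds calcium and lipids, which PLA2G4C lacks. PLA2G4A, which moves to membranes when calcium rises, is the classical arachidonate-releasing enzyme that feeds prostaglandin and leukotriene synthesis, PLA2G4E transfers acyl chains to phosphatidylethanolamine to make N-acyl phosphatidylethanolamines, and PLA2G4D is known from keratinocytes and psoriatic skin.

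The genes lie at 3 places in the genome (GRCm39, the build of the deposited counts). Gene models, lengths and overlaps are from a later GENCODE release than the one that the authors counted with. *Pla2g4a* is on the minus strand of chromosome 1, from 149705369 to 149837053. *Pla2g4c* is on the plus strand of chromosome 7, from 13058496 to 13094597. The other members lie within 280.76 kb of chromosome 2. There, *Pla2g4b* is on the plus strand, from 119863898 to 119873511, and 123.38 kb further on follow *Pla2g4e* (119996893 to 120076084), *Pla2g4d* (120096076 to 120119678) and *Pla2g4f* (120130438 to 120144653), all on the minus strand. Only 19.99 kb separate *Pla2g4e* from *Pla2g4d*, and 10.76 kb separate *Pla2g4d* from *Pla2g4f*. A pair of annotated neighbours matters for the counts below. *Gm28042*, a read-through gene, shares 3878 of the 5831 exonic bases of *Pla2g4b* on the same strand, and *Sptbn5*, a spectrin gene on the opposite strand, shares 792, so that 1953 bases (33.5%) belong to *Pla2g4b* alone.

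Several genes of the chromosome 2 stretch rose with cytokines, among them *Pla2g4b*, for which no RefSeq promoter window was available, *Sptbn5* and, in WT cells, *Ehd4*. For *Pla2g4d*, *Pla2g4e* and *Pla2g4f*, minus-strand neighbours that also rose, the 250 bases before their RefSeq start sites are shown, 5′ to 3′ on the coding strand. They were taken from RefSeq promoter windows of build GRCm38.p6, and each matched GRCm39 once, at chr2:120119551-120119800 for *Pla2g4d*, chr2:120075817-120076066 for *Pla2g4e* and chr2:120144647-120144896 for *Pla2g4f*, minus strand. Capitals mark a match to a searched motif.
Pla2g4d: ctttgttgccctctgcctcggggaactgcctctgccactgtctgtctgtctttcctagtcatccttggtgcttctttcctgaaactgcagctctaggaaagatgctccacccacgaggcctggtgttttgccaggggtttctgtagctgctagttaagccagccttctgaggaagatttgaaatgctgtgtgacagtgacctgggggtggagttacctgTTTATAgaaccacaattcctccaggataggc
Pla2g4e: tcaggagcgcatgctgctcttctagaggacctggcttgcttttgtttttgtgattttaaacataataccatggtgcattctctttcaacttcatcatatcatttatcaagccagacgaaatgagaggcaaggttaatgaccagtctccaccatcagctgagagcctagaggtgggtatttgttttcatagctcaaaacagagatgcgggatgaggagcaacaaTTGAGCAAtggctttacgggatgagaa
Pla2g4f: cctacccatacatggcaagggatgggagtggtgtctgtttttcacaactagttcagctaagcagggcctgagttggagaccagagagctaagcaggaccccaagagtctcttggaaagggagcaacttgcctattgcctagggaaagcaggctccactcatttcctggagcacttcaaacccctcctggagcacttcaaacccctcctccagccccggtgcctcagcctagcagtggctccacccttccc
Motifs were searched on both strands of the whole 300-base windows, which also hold a short stretch after the start. The *Pla2g4d* window held the TATA letters TATAAA on the opposite strand, 31 bases before the start, which 13.6% of the 32851 RefSeq promoter windows of this length also hold in either orientation. In the *Pla2g4e* window a C/EBP motif (TTGCNNAA) lay 27 bases before the start, likewise on the opposite strand, and 10.8% of all windows hold one. No NF-kB motif (GGGNN followed by TTTCC, in 1.63% of windows), AP-1 motif (TGANTCA, in 7.81%) or other searched motif was in the *Pla2g4f* window, and none of the windows of *Pla2g4d*, *Pla2g4e* and *Pla2g4f* held NF-kB or AP-1 letters. The GENCODE gene models start further upstream, by 128 bases for *Pla2g4d*, 268 bases for *Pla2g4e* and 7 bases for *Pla2g4f*, so that these letters are at other distances from the GENCODE starts. *Pla2g4a* and *Pla2g4c* have 2 windows each, of which 1 of *Pla2g4a* held TATAAA and 1 of *Pla2g4c* held the NF-kB letters.

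Total counts per library lay between 42072745 and 78102858. The cells were keratinocytes by their markers: the summed level of 8 keratinocyte markers, among them the keratins *Krt5* and *Krt14*, was 34140 to 47440 CPM (counts scaled to library size after TMM normalization) in the 26 libraries. Markers of other cell types were low, and a low sum alone does not show that a cell type was present. Melanocyte markers summed to 306 to 628 CPM (6 of 6 above 0 in all libraries), fibroblast markers to 2.08 to 8.72 CPM over 7 genes, endothelial markers to 2.19 to 6.77 CPM over 4, and immune markers to 1.74 to 16.9 CPM over 6, with *Cd207* at 0 throughout. Among 5 mast cell markers *Cpa3*, *Tpsb2* and *Fcer1a* were at 0 in all libraries, and the list's sum of 8.01 to 15.6 CPM was almost wholly *Kit*. The immune sum was mostly *Lyz2* (median 5.53 CPM), while *Ptprc* was at 0 in 16 libraries, *Cd3e* in 20, *Cd74* in 5 and *Itgam* in 3. *Cdh5* was at 0 in 25 libraries and *Lum* in 22, and the other endothelial and fibroblast markers in 1 at most. The part of other cell types in the family's levels was not tested.

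Under basal conditions *Pla2g4a* was the most abundant member. In bulk libraries such as these, fewer cells that express a gene and less RNA of it per cell cannot be told apart. To compare different genes, CPM was divided by the kb of their annotated exons (CPM per kb). In WT basal libraries *Pla2g4a* reached 11.0 ± 1.13 CPM per kb (SD, n = 5), followed by *Pla2g4f* with 4.19 ± 0.919, *Pla2g4e* with 2.20 ± 0.659, *Pla2g4d* with 0.907 ± 0.368, *Pla2g4b* with 0.104 ± 0.0367 and *Pla2g4c* with 0.0196 ± 0.0238 CPM per kb. The same order held in KO basal libraries, from 10.2 ± 0.629 for *Pla2g4a* down to 0.0205 ± 0.0234 CPM per kb for *Pla2g4c* (SD, n = 8). Ranges of neighbours in this order overlapped for *Pla2g4f* and *Pla2g4e* in both genotypes, and for *Pla2g4b* and *Pla2g4c* in KO cells, whereas *Pla2g4a* was apart from all other members in every basal library. Per kb of unshared exon *Pla2g4b* had 0.31 CPM in WT and 0.12 CPM in KO basal libraries. Its range then overlapped with that of *Pla2g4d* in both genotypes. The spread between mice also differed between members, with a coefficient of variation in WT basal cells of 10.3% for *Pla2g4a*, 21.9% for *Pla2g4f*, 29.9% for *Pla2g4e* and 40.6% for *Pla2g4d*.

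In the presence of cytokines *Pla2g4e* and *Pla2g4d* moved up to the level of *Pla2g4a*. In WT cells *Pla2g4e* reached 15.2 ± 3.87, *Pla2g4d* 14.2 ± 4.05 and *Pla2g4a* 10.8 ± 0.538 CPM per kb (SD, n = 5). In KO cells *Pla2g4e* reached 12.1 ± 2.69, *Pla2g4a* 11.2 ± 0.465 and *Pla2g4d* 10.3 ± 2.59 CPM per kb (SD, n = 8). The ranges of neighbours among these top members overlapped in both genotypes. Within a library, *Pla2g4e* was above *Pla2g4d* in 4 of 5 WT and 8 of 8 KO libraries, *Pla2g4e* above *Pla2g4a* in 4 of 5 and 5 of 8, and *Pla2g4d* above *Pla2g4a* in 4 of 5 and 1 of 8. The order also depends on the gene length used: per kb of the longest transcript, *Pla2g4a* reached 20.4 CPM per kb in WT and 21.1 in KO cells with cytokines, against 14.2 and 10.3 for *Pla2g4d*, and *Pla2g4a* was then above *Pla2g4d* in 5 of 5 WT and 8 of 8 KO libraries. *Pla2g4e* was then above *Pla2g4d* in 5 of 5 and 8 of 8 and above *Pla2g4a* in 3 of 5 and 1 of 8. *Pla2g4f* followed with 6.88 ± 1.57 CPM per kb in WT and 5.48 ± 1.26 in KO cells, and *Pla2g4b* and *Pla2g4c* stayed lowest.

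**Figure D1:**
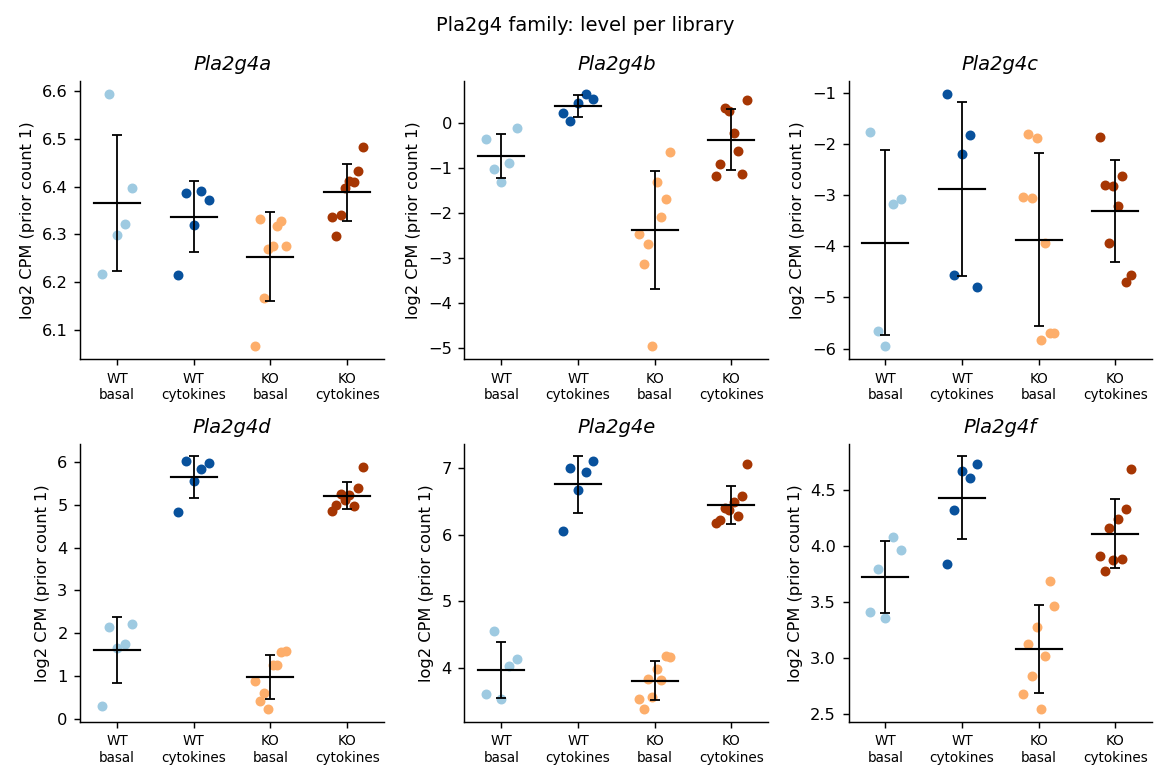
Level of each family member in the 26 libraries, as log2 CPM with a prior count of 1 on the vertical axis (scales differ between panels), for WT and KO cells under basal conditions and with IL17A and TNFα. Points are libraries (5 WT and 8 KO mice), long bars are means and error bars are SD. The points of *Pla2g4d* and *Pla2g4e* with cytokines lie above all basal points, those of *Pla2g4a* stay within a narrow band, and *Pla2g4c* scatters widely at low counts.

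The first question of the design was which members answer to IL17A and TNFα in WT cells. Of the 5 members with a mean normalized count over 10, 4 rose (*Pla2g4b*, *Pla2g4d*, *Pla2g4e* and *Pla2g4f*) and *Pla2g4a* was not called, where a call needed a fold above 1.5 together with an edgeR adjusted p (Benjamini-Hochberg, over all genes) below 0.1. Among all 16893 genes tested, 8.65% were called higher, 5.26% lower and 13.9% in either direction. In KO cells the same 4 members rose, against 6.33% of all genes called higher, 4.55% lower and 10.9% in either direction. The median log2 fold change of the 5 members was 1.08 in WT and 1.80 in KO cells, and that of all genes tested was 0.014 and 0.0046.

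*Pla2g4d* had the largest change of the family. In WT basal libraries it reached 1.22, 4.41, 3.14, 3.34 and 4.63 CPM in replicates 1 to 5, and with cytokines 28.6, 65.2, 47.1, 57.2 and 62.9 CPM. In KO cells it lay between 1.15 and 2.98 CPM under basal conditions (median 2.10, n = 8) and between 29.2 and 59.2 CPM with cytokines (median 36.2). Treated and basal libraries did not overlap in either genotype, and WT replicate 1 was the lowest WT library under both conditions. The log2 fold change was 3.97 (SE 0.29) in WT and 4.22 (SE 0.24) in KO cells, which placed *Pla2g4d* at rank 51 and rank 31 of 16893 genes by fold change. The transcript that KO cells raised lacks exon 3 by design, at chr2:120114273-120114409, and the counts per gene cannot show this, since that exon makes up 3.71% of the transcript and its loss alone would lower the counts by 0.05 on the log2 scale. The exon has 137 coding bases, not a multiple of 3, so that its loss alone would shift the reading frame. Levels and shares of *Pla2g4d* in KO cells are those of this altered transcript.

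*Pla2g4e*, the N-acyltransferase, had the second largest change. It reached 12.1, 23.5, 11.5, 16.3 and 17.5 CPM in WT basal replicates 1 to 5, and 66.7, 128.9, 101.6, 122.8 and 137.9 CPM with cytokines. In KO cells the range was 10.36 to 17.97 CPM under basal conditions (median 14.1, n = 8) and 72.0 to 133.7 CPM with cytokines (median 83.6). Again no treated library overlapped with a basal one. The log2 fold change was 2.79 (SE 0.21, adjusted p = 7.41e-12) in WT and 2.65 (SE 0.16, adjusted p = 1.04e-13) in KO cells, at ranks 131 and 91.

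*Pla2g4f* changed less. Its level was 10.6, 13.9, 10.2, 16.9 and 15.6 CPM in WT basal replicates 1 to 5, and 14.3, 19.9, 25.4, 24.3 and 26.6 CPM with cytokines. KO libraries ranged from 5.81 to 12.9 CPM under basal conditions (median 8.39, n = 8) and from 13.7 to 25.8 CPM with cytokines (median 16.5). The groups overlapped in WT, where replicate 1 with cytokines stayed below the 2 highest basal libraries, and did not overlap in KO cells. The log2 fold change was 0.72 (SE 0.20, adjusted p = 0.00682) in WT and 1.02 (SE 0.16, adjusted p = 1.06e-05) in KO cells, and without WT replicate 3 the WT value was 0.58, under the fold threshold, with an adjusted p of 0.0586. *Ehd4*, an endocytic trafficking gene that lies between *Pla2g4b* and *Pla2g4e*, also rose with cytokines in WT cells (log2 fold change 0.61, SE 0.07) and had 0.53 (SE 0.06) in KO cells, under the fold threshold.

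*Pla2g4b* rose from low counts. WT replicates 1 to 5 had 44, 24, 24, 33 and 38 counts under basal conditions, or 0.386 to 0.898 CPM, and 81, 71, 67, 71 and 79 counts with cytokines, or 1.001 to 1.54 CPM. KO libraries had 1 to 32 counts under basal conditions (median 11.0) and 20 to 75 with cytokines (median 36.5), and these ranges overlapped whereas those of WT did not. The log2 fold change was 1.80 (SE 0.41, adjusted p = 0.000983) in KO cells and 1.08 (SE 0.49, adjusted p = 0.0960) in WT cells. The WT call was lost without any 1 of the 5 WT mice (adjusted p 0.110 to 0.237), without KO replicate 3, 5, 6 or 7 (0.101 to 0.115), with no filter (0.158), with edgeR's own filter (0.106) and with limma on the deposited log2 values (0.116). The 792 bases shared with *Sptbn5* lie within the 3878 bases shared with *Gm28042*. There, position alone does not assign a read to *Pla2g4b*. Neither the strand setting nor the handling of reads over several genes is given in the sources used here. *Sptbn5* moved the same way, with a log2 fold change of 1.49 (SE 0.16) in WT and 1.68 (SE 0.13) in KO cells, while *Gm28042* was listed at 0 in all libraries. The part of these overlaps in the values of *Pla2g4b* was not tested.

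*Pla2g4a*, the arachidonate-releasing enzyme, was not called in either genotype. Its level was 74.4, 96.6, 78.7, 79.9 and 84.3 CPM in WT basal replicates 1 to 5, and 74.3, 83.6, 79.9, 83.9 and 82.8 CPM with cytokines. In KO cells it ranged from 66.9 to 80.5 CPM under basal conditions (median 77.4, n = 8) and from 78.6 to 89.4 CPM with cytokines (median 84.6). The ranges overlapped in both genotypes. The log2 fold change was -0.03 (SE 0.06, adjusted p = 0.727) in WT cells. In KO cells it was 0.13 (SE 0.05, adjusted p = 0.0277), a fold of 1.10 that did not reach the fold threshold, and 7 of 8 KO mice had a higher value with cytokines.

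*Pla2g4c*, the member without a C2 domain, had 0 to 34 counts per library and did not pass the filter. It was at 0 in 2 of 5 WT and 3 of 8 KO basal libraries, where a count of 0 allows up to 0.0483 to 0.0593 CPM, taking 3 counts as the limit. With cytokines all libraries had at least 1 count, from 1 to 34 in WT and from 1 to 12 in KO cells. At this depth no change of *Pla2g4c* was detectable. Tested without the filter, its log2 fold change was 1.06 (SE 1.14, adjusted p = 0.630 by edgeR) in WT and 0.06 (SE 0.91, adjusted p = 1.0) in KO cells.

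**Figure D2:**
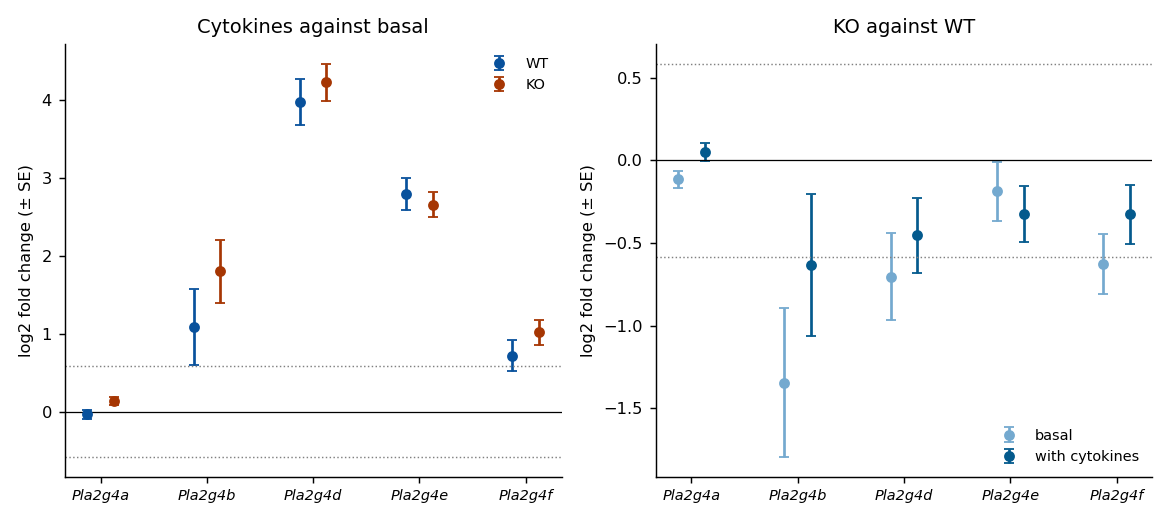
Log2 fold changes of the 5 members tested, with SE as error bars, for cytokines against basal (left, WT and KO cells) and KO against WT (right, basal and with cytokines); dotted lines mark a fold of 1.5. *Pla2g4d* and *Pla2g4e* lie far above the dotted line in both genotypes, at log2 fold changes of 2.65 to 4.22, and *Pla2g4a* lies near 0.

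The responses of members were compared within mice, paired by the number in the library titles, as the log2 CPM with cytokines minus that under basal conditions. *Pla2g4d* rose more than *Pla2g4e* in 13 of 13 mice, by 1.46 ± 0.443 on the log2 scale (SD, n = 13; two-sided exact sign-flip permutation test, p = 0.000244, the smallest this test can give, adjusted p = 0.000349 over 10 pairs). *Pla2g4e* rose more than *Pla2g4f* in 13 of 13 mice, by 1.80 ± 0.447 (same exact test and p). *Pla2g4f* in turn exceeded *Pla2g4a* in 13 of 13 mice, by 0.83 ± 0.347 (same exact test and p). The order *Pla2g4d*, *Pla2g4e*, *Pla2g4f*, *Pla2g4a* thus held in each mouse of both genotypes. *Pla2g4b* was less steady, with responses from 0.57 to 5.21 over the mice, and the highest value came from KO replicate 4, whose basal library had 1 count. It exceeded *Pla2g4f* in 9 of 13 mice, by 0.75 ± 1.34 (exact sign-flip test, adjusted p = 0.0322), and by 0.43 without KO replicate 4.

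**Figure D3:**
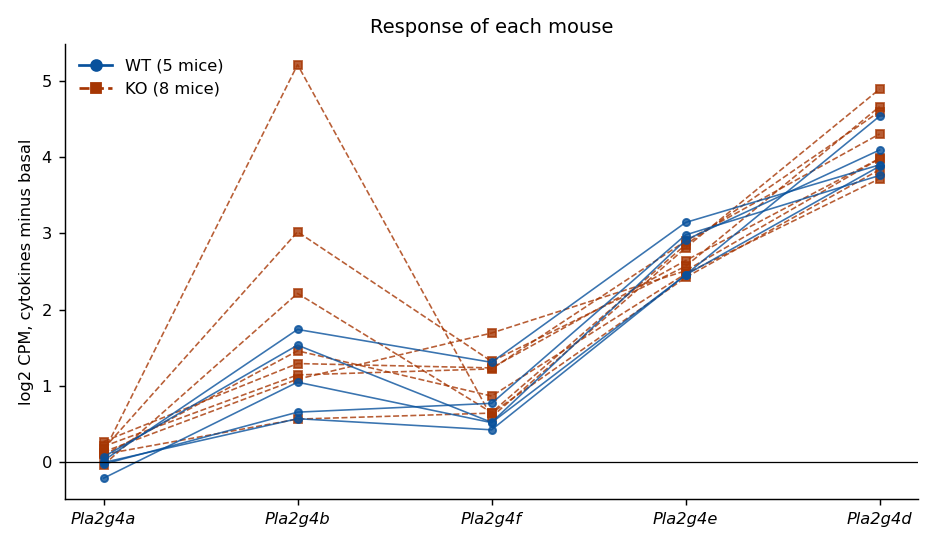
Response of each mouse as log2 CPM with cytokines minus log2 CPM under basal conditions (vertical axis) for the 5 members tested, with 1 line per mouse (solid with circles for 5 WT, dashed with squares for 8 KO). All 13 lines climb from *Pla2g4f* to *Pla2g4e* and on to *Pla2g4d*, and *Pla2g4b* spreads from 0.57 to 5.21.

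The make-up of the family changed accordingly. The summed level of all 6 members was 18.5 ± 2.63 CPM per kb in WT basal cells and 47.3 ± 9.56 with cytokines (SD, n = 5), and 15.5 ± 1.56 and 39.2 ± 6.89 in KO cells (SD, n = 8). Per kb of the longest transcript the sums were 29.3 and 63.2 in WT and 25.4 and 54.2 in KO cells, and *Pla2g4a* made up 71.5% and 33.1% in WT and 76.1% and 39.5% in KO cells. Shares per kb of all exons follow. *Pla2g4a* made up 60.2 ± 4.33% of the sum in WT basal cells and 23.6 ± 4.596% with cytokines, and 66.2 ± 4.03% and 29.0 ± 3.47% in KO cells, although its own level was not called as changed. The share of *Pla2g4d* went from 4.79 ± 1.59% to 29.5 ± 3.32% in WT and from 3.57 ± 1.03% to 26.1 ± 1.81% in KO cells. That of *Pla2g4e* went from 11.7 ± 1.90% to 31.8 ± 2.10% in WT and from 12.5 ± 1.86% to 30.7 ± 1.21% in KO cells. Over the 13 mice the share of *Pla2g4a* fell by 37.0 ± 2.86 points, and those of *Pla2g4d* and *Pla2g4e* rose by 23.3 ± 2.19 and 18.9 ± 1.90 points, in 13 of 13 mice each (two-sided exact sign-flip permutation test, p = 0.000244, the smallest possible, adjusted p = 0.00146 over 18 tests). Shares sum to 100%, so that these changes are not independent of each other. The share of *Pla2g4f* fell by 5.23 ± 4.14 points (exact test, adjusted p = 0.00659) in 12 of 13 mice, although its level rose, and per kb of the longest transcript this difference was -1.67 points with an adjusted p of 0.109. Between genotypes, *Pla2g4a* had a share that was 6.04 points higher in KO basal cells and 5.43 points higher in KO cells with cytokines (exact permutation test over mice, adjusted p = 0.0793 for both). The share of *Pla2g4f* was lower by -5.25 points under basal conditions (exact permutation test, adjusted p = 0.0629), that of *Pla2g4b* by -0.316 points under basal conditions (adjusted p = 0.0629) and that of *Pla2g4d* by -3.40 points with cytokines (adjusted p = 0.0793). Each of these genotype differences had an adjusted p over 0.1 when some single mouse was left out.

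**Figure D4:**
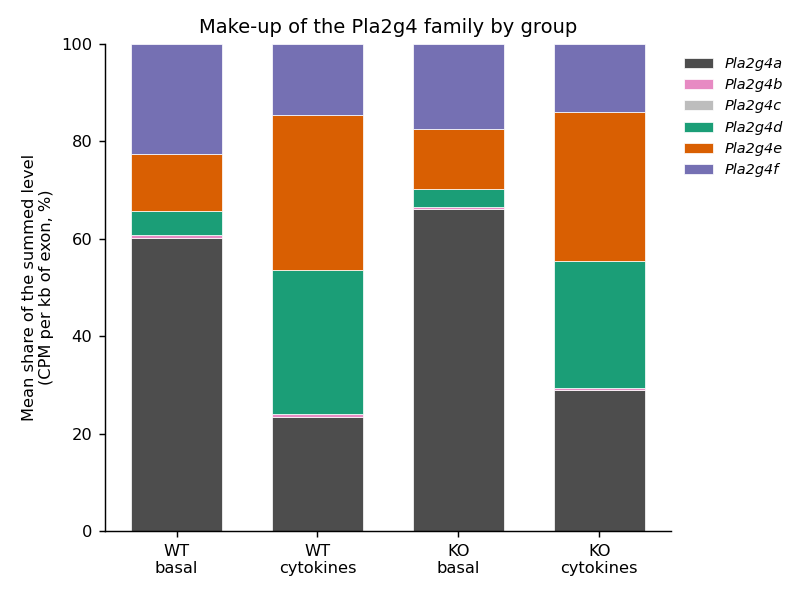
Mean share of each member in the summed level of the family (CPM per kb of exon, % on the vertical axis from 0 to 100) in the 4 groups, as stacked bars. *Pla2g4a* fills 60.2% of the WT basal bar and 23.6% of the WT bar with cytokines, where *Pla2g4d* and *Pla2g4e* together fill most of the rest.

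The next question was whether the family differs between WT and KO cells. Under basal conditions 3 of the 5 members tested were called lower in KO cells (*Pla2g4b*, *Pla2g4d* and *Pla2g4f*), where 1.07% of all genes were called lower, 1.61% higher and 2.68% in either direction. The median log2 fold change of the 5 members was -0.63, and that of all genes tested was 0.0004. Of the members, *Pla2g4f* had the firmest difference, with a log2 fold change of -0.63 (SE 0.18, adjusted p = 0.0258 by edgeR), and 6 of 8 KO libraries were below the lowest WT library (10.2 CPM), whereas KO replicates 7 and 8 were at 12.9 and 11.0 CPM. *Pla2g4b* and *Pla2g4d* were lower by log2 fold changes of -1.34 and -0.70, with overlapping ranges. *Pla2g4d* is the targeted gene itself. *Sptbn5*, which shares exonic bases with *Pla2g4b*, was also lower in KO cells (log2 fold change -0.78, SE 0.15). Unlike the members, *Sptbn5* was called lower in KO cells with cytokines too (-0.59, SE 0.14, adjusted p = 0.0344 by edgeR). *Pla2g4e*, at -0.19 (SE 0.18, adjusted p = 0.594), and *Pla2g4a*, at -0.12 (SE 0.05, adjusted p = 0.183), were not called.

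These basal calls rested on single mice. The number of members called lower ranged from 0 (without WT replicate 5 or KO replicate 1) to 3, and was 1 without WT replicate 4 or KO replicate 2, 3 or 5. With only both basal groups fitted it was 1 (*Pla2g4f*), since the adjusted p was 0.197 for *Pla2g4b* and 0.199 for *Pla2g4d*. With the mouse as a replicate block it was 2, the adjusted p of *Pla2g4d* being 0.519. For genotype differences this setting used limma (voom) with a correlation within mice in place of edgeR, so that block and model changed together. At the stricter adjusted p of 0.05 the number of members called was 1. *Pla2g4f* stayed under an adjusted p of 0.1 in 12 of 13 fits with a mouse left out, the exception being WT replicate 4 (0.112), but its fold fell below 1.5 without WT replicate 5, KO replicate 1 or KO replicate 5. Differentiation markers (*Krt1*, *Krt10*, *Ivl*, *Lor*, *Flg*) summed to 2092 to 4003 CPM in WT and 1664 to 3662 CPM in KO basal libraries, and to 158 to 323 and 109 to 206 CPM with cytokines. Their part in these differences was not tested.

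In the presence of cytokines no member was called between genotypes by edgeR or by DESeq2, and none had an unadjusted p under 0.05 in either fit, while 0.704% of all genes were called in either direction, 0.556% of all genes lower, and 2533 had an unadjusted p under 0.05. The log2 fold changes were -0.45 (SE 0.23) for *Pla2g4d*, -0.33 (SE 0.17) for *Pla2g4e*, -0.33 (SE 0.18) for *Pla2g4f*, -0.63 (SE 0.43) for *Pla2g4b* and 0.05 (SE 0.05) for *Pla2g4a*, with adjusted p between 0.345 and 0.725 (edgeR). An unadjusted p under 0.05 was reached by *Pla2g4d* and *Pla2g4e* with no filter and with only both treated groups fitted, by *Pla2g4b*, *Pla2g4d* and *Pla2g4e* with the mouse as a replicate block, and by *Pla2g4d*, *Pla2g4e* and *Pla2g4f* without WT replicate 1 or KO replicate 8. Of all fits run, only that without WT replicate 1 called a member, *Pla2g4d* at -0.60 (adjusted p = 0.0357), and *Pla2g4e* then had -0.46 (adjusted p = 0.0660), under the fold threshold.

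Whether the cytokine response itself differed between genotypes was tested as an interaction. No member was called by edgeR or DESeq2, and 1 of 5 (*Pla2g4a*) had an unadjusted p under 0.05, where 0.219% of all genes were called and 1542 had an unadjusted p under 0.05. The difference of the responses (KO minus WT) was 0.17 (SE 0.07, adjusted p = 0.478) for *Pla2g4a*, 0.25 (SE 0.35) for *Pla2g4d*, -0.14 (SE 0.25) for *Pla2g4e*, 0.30 (SE 0.26) for *Pla2g4f* and 0.71 (SE 0.63) for *Pla2g4b* on the log2 scale.

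Co-variation over mice was examined within a treatment, as deviations of log2 CPM from the genotype mean in 13 mice, for 10 pairs of members under both conditions (20 tests). With cytokines *Pla2g4d* and *Pla2g4e* went together almost point by point, with a Pearson's r of 0.991 and a Spearman's rho of 0.978 (permutation test within genotype, p = 2e-05 for both, adjusted p = 0.0004). The value was 0.974 without the 2 mice farthest from the median of *Pla2g4d*, the first gene of the pair, and 0.982 to 0.994 with each mouse left out. It was 0.988 in the 8 KO mice alone (exact permutation test, p = 9.92e-05) and 0.993 in the 5 WT mice. WT replicate 1 was the lowest and KO replicate 8 the highest point for both genes. Under basal conditions the same pair had r = 0.757 and rho = 0.786 (permutation test, adjusted p = 0.0175 and 0.0179), 0.770 without the 2 farthest mice and 0.856 in the KO mice.

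The other pairs among *Pla2g4a*, *Pla2g4d*, *Pla2g4e* and *Pla2g4f* also co-varied with cytokines. The r was 0.894 for *Pla2g4a* and *Pla2g4e*, 0.869 for *Pla2g4e* and *Pla2g4f*, 0.863 for *Pla2g4a* and *Pla2g4d*, 0.848 for *Pla2g4d* and *Pla2g4f*, and 0.766 for *Pla2g4a* and *Pla2g4f* (rho 0.907, 0.775, 0.863, 0.769 and 0.698; permutation test, adjusted p of r 0.0036 to 0.0175). Without the 2 mice farthest by the first gene named, these were 0.841, 0.665, 0.791, 0.619 and 0.538, with the lowest values for the pairs with *Pla2g4f*. The mice left out can differ between pairs, and *Pla2g4f* was never the gene that chose them. Over the 26 libraries many other genes correlated with *Pla2g4d* and *Pla2g4e* more closely than *Pla2g4a* and *Pla2g4f* did, as their ranks of 710 to 1194 show. *Pla2g4e* was at rank 28 for *Pla2g4d*, and *Pla2g4d* at rank 282 for *Pla2g4e*. Such ranks were not computed for the cytokine libraries alone, so that nothing particular to the family is read from these pairs or from *Pla2g4d* and *Pla2g4e*. *Pla2g4a* thus varied with *Pla2g4d* and *Pla2g4e* between mice, over a range of 74.3 to 89.4 CPM, without a called response to cytokines. *Pla2g4b* with cytokines had r between 0.328 and 0.430 with the other members (permutation test, adjusted p 0.167 to 0.294). Under basal conditions it had r = 0.538 with *Pla2g4d* (rho 0.676; permutation test, adjusted p = 0.0672 and 0.0449), which was 0.905 in the 8 KO mice, -0.22 in the 5 WT mice and 0.305 without the 2 farthest mice. *Pla2g4b* and *Pla2g4e* under basal conditions had r = 0.501 (rho 0.571; permutation test, adjusted p = 0.0994 and 0.0893). *Pla2g4a* and *Pla2g4e* under basal conditions had r = 0.628 (rho 0.505; permutation test, adjusted p = 0.0884 and 0.145), and this was 0.385 without the 2 farthest mice, 0.264 in the 8 KO mice and 0.920 in the 5 WT mice. Among *Pla2g4a*, *Pla2g4d*, *Pla2g4e* and *Pla2g4f* the remaining basal pairs had r between 0.391 and 0.510 (permutation test, adjusted p 0.167 to 0.226). The 2 genes of a pair are read from the same library and share its normalization, and *Pla2g4d* and *Pla2g4e* are chromosomal neighbours; the part of either in the co-variation was not tested.

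**Figure D5:**
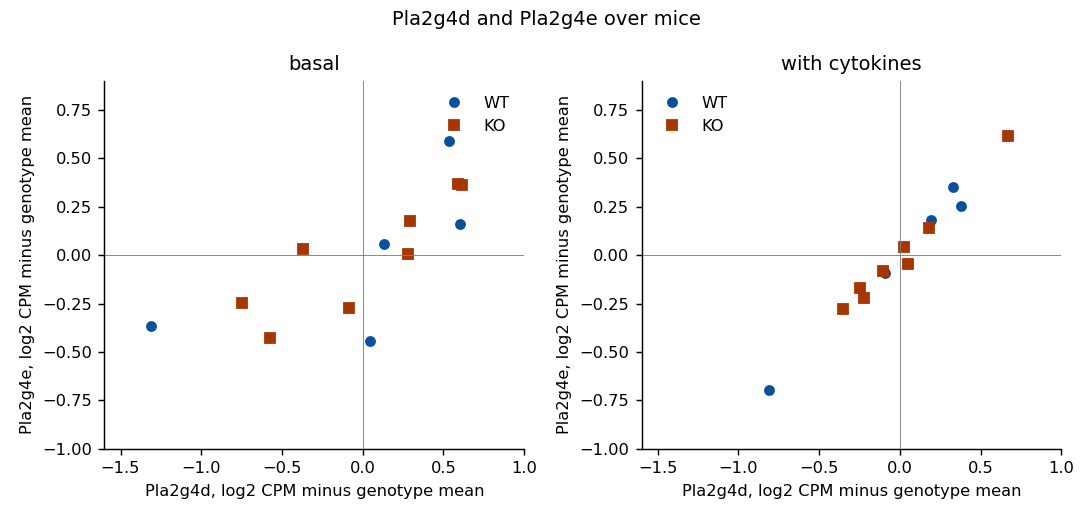
Deviation of *Pla2g4e* (vertical axis) against that of *Pla2g4d* (horizontal axis) from the genotype mean, in log2 CPM, for 5 WT (circles) and 8 KO mice (squares), under basal conditions (left, r = 0.757) and with cytokines (right, r = 0.991). With cytokines the points form a narrow line, with WT replicate 1 at its lower and KO replicate 8 at its upper end.

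As a description without a test, the genes whose pattern was most like that of each member were looked up among 11854 genes with a mean normalized count over 100, by the correlation of log2 CPM centred on the 4 groups over 26 libraries. For *Pla2g4e* these were *Esyt3* (r = 0.946), *Prdm1* (0.943) and *Pnpla1* (0.942), and for *Pla2g4d* *Fchsd1* (0.904), *Plekhm2* (0.896) and *Sema7a* (0.889). *Pla2g4e* was at rank 28 of the 11854 genes for *Pla2g4d* (r = 0.826), and *Pla2g4d* at rank 282 for *Pla2g4e*. The other members ranked lower: *Pla2g4a* was at rank 908 for *Pla2g4d* (r = 0.603) and 710 for *Pla2g4e* (r = 0.701), and *Pla2g4f* at rank 1194 for *Pla2g4d* (r = 0.547) and 857 for *Pla2g4e* (r = 0.664). *Pla2g4f* was most like *Elovl1* (0.881), *Rdh12* (0.878) and *Chil1* (0.875), and *Pla2g4a* most like *Tchhl1* (0.867), *Cpeb4* (0.841) and *Pmaip1* (0.837). For *Pla2g4b*, searched over 11855 genes, they were *Mrps6* (0.815), *Abcf1* (0.780) and *Bet1l* (0.775). PNPLA1 makes the acylceramides of the skin barrier and ELOVL1 elongates very-long-chain fatty acids. Genes compared in this way share the depth and culture of each library, and each mouse gave both a basal and a treated library.

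Other genes of phospholipid turnover were counted by list. Over all genes tested, cytokines called 8.65% higher and 5.26% lower in WT and 6.33% higher and 4.55% lower in KO cells. The lists hold 11 to 20 tested genes each, so that their counts are given as a description and nothing particular to a list is read from them. In the list of other phospholipase A2 and patatin-like genes, 20 of 29 were tested, and cytokines called 1 higher and 3 lower in WT and 1 higher and 4 lower in KO cells (median log2 fold change -0.20 and -0.14). The secreted enzymes *Pla2g2f*, which is expressed in the epidermis, and *Pla2g2d* fell, with log2 fold changes of -2.88 (SE 0.32) and -2.05 (SE 0.27) in WT and -3.49 (SE 0.27) and -2.40 (SE 0.22) in KO cells, and *Pnpla1* was the member that rose (0.89 and 0.60). Of 13 tested genes that use released arachidonate (20 listed), 3 rose in WT and 4 in KO cells and none fell (median 0.11 and 0.10). *Ptges*, the inducible prostaglandin E synthase, rose by 1.18 (SE 0.12) in WT and 1.28 (SE 0.10) in KO cells, *Alox12b*, a lipoxygenase of the epidermal barrier, by 1.17 (SE 0.25) and 1.16 (SE 0.20), and its partner *Aloxe3* by 0.66 (SE 0.19) and 0.63 (SE 0.15). In basal KO cells 2 of these 13 were higher than in WT, against 1.61% of all genes, the lipoxygenase *Alox12* (0.70, SE 0.19, adjusted p = 0.0151) and *Ptgs2*, the inducible cyclooxygenase (0.65, SE 0.12, adjusted p = 0.000418, both by edgeR).

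Of 13 genes that activate fatty acids or reacylate lysophospholipids, all tested, 4 rose and 1 fell with cytokines in WT and 3 rose and 1 fell in KO cells (median 0.06 and 0.20). The acyl-CoA synthetase *Acsl1* fell by 1.88 in WT and by 1.64 in KO cells on the log2 scale, while the acyltransferases *Lpcat4* (1.17 and 0.93) and *Lpcat1* (1.01 and 0.91) rose. Of 15 kinases and binding partners of the cytosolic enzymes, 3 rose and 2 fell in WT and 1 rose and 2 fell in KO cells (median 0.0042 and -0.01), with *Anxa1*, an annexin that binds and inhibits PLA2G4A, at 1.30 (SE 0.13) and 1.08 (SE 0.10) and *Cerk*, which makes ceramide 1-phosphate, an activator of PLA2G4A, at -0.82 (SE 0.09) and -0.74 (SE 0.07). The turnover of N-acyl phosphatidylethanolamine, the product of PLA2G4E, and of 2-arachidonoylglycerol had 1 of 11 genes higher and 2 lower in both genotypes (median -0.15 and -0.12). *Dagla*, which makes 2-arachidonoylglycerol, rose (1.62 in WT, SE 0.46, and 1.18 in KO cells, SE 0.35) and *Faah*, which degrades N-acylethanolamines, fell (-1.34 in WT, SE 0.29, and -2.03 in KO cells, SE 0.24). With cytokines *Faah* was also lower in KO than in WT cells (-1.03, SE 0.27, adjusted p = 0.0570 by edgeR), the 1 gene of these 5 lists called in that comparison (0.556% of all genes were called lower), and in the interaction no gene of the lists was called.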

How the data were processed

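The members and gene lists were chosen with earlier results of these data known. Poly(A) RNA of 26 libraries (TruSeq stranded, paired reads) was aligned by the authors to mm39 with STAR 2.7.10b and counted with featureCounts 2.0.6 and GENCODE. The authors deposited raw counts per gene symbol, and log2 values of counts scaled with DESeq2 size factors, which were used only in alternatives. A library pools 2 wells of a single mouse, values were not pooled over mice, and counts per exon were not analysed here. The strand setting of the counting is not given in the sources used here.

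Genes whose mean normalized count passed 10 were fitted with edgeR 4.0.16 in R 4.3.3 (TMM, quasi-likelihood, 4 groups, no covariate), and adjusted p-values are over all 16893 genes. SE is the log2 fold change divided by the square root of F. CPM are TMM-normalized with a prior count of 1 on the log2 scale. Shares, responses and co-variation were tested by permutation over mice (SciPy 1.17.1). For the gene lists, only some of the called genes were named, mostly among those with the largest fold change. Called with cytokines but not named above were, among others, *Pnpla3* (lower in both genotypes), *Pla2g3* and *Mgll* (lower in KO cells) and *Ptgs1* (higher in KO cells). The scripts were tested on simulated data.

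Libraries of a genotype with the same number were taken to come from the same mouse, which rests on their titles alone. The correlation of their deviations from the mean of their group was 0.0005 to 0.254 (median 0.106). No 2 libraries of a group agreed within sampling noise (lowest chi-square per degree of freedom 6.98). Alternatives were DESeq2 1.42.0 and its size factors, limma 3.58.1, other filters and thresholds, only the groups compared, a mouse block, other gene lengths, and each mouse left out. The mouse block was fitted with edgeR for the responses and the interaction, and with limma (voom) for genotype differences. The tests of response differences between members, the unshared exonic length, and leaving out mice in the co-variation were added after seeing the data. Intervals from counting are small beside the spread between mice, except for *Pla2g4b* and *Pla2g4c*. Sex, litter and batch are not in the labels.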

Additional observations from a re-analysis of the deposited data

Results flagged for a closer look

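For each of the 6 members in each of the 4 groups (24 sets of 5 or 8 libraries), the highest and lowest library was compared with its nearest neighbour by Dixon's test, which by chance marks about 1 in 20 sets. In 2 sets a library stood apart. KO replicate 8 with cytokines had 59.2 CPM of *Pla2g4d*, where its gap to the next library was 0.566 of the whole range, and the same library had 133.7 CPM of *Pla2g4e*, with a gap of 0.605 of the range. Without this mouse the log2 fold change with cytokines in KO cells was 4.19 (SE 0.24) for *Pla2g4d* and 2.59 (SE 0.16) for *Pla2g4e*, and the difference between genotypes with cytokines was -0.57 (adjusted p = 0.149) and -0.43 (adjusted p = 0.133 by edgeR), still not called.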

How the results depend on the processing

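Under every alternative *Pla2g4d* and *Pla2g4e* were called higher with cytokines in both genotypes. The number of members called with cytokines was 4 in KO and 2 to 4 in WT cells with each mouse left out (2 without WT replicate 3). Between genotypes it was 0 to 3 under basal conditions (main value 3), 1 with only the 2 groups compared and 1 at an adjusted p of 0.05, and with cytokines it was 0 to 1. The mouse as a replicate block gave 4, 4, 2, 0 and 0 members called in the cytokine, genotype and interaction tests, and changed no other call than that of *Pla2g4d* under basal conditions. For the genotype tests this setting was a limma fit, so that block and model changed together. The log2 fold change of *Pla2g4a* in WT cells was -0.059 to 0.016 with each mouse left out, turning positive without WT replicate 2 (adjusted p = 0.877). The level per kb of the longest transcript was 20.9, 20.4, 19.3 and 21.1 CPM for *Pla2g4a* (WT basal, WT with cytokines, KO basal, KO with cytokines) and 3.07, 21.2, 2.69 and 16.9 for *Pla2g4e*, and for *Pla2g4b* 0.143 and 0.304 in WT cells. Per kb of unshared exon, *Pla2g4b* had 0.311, 0.660, 0.123 and 0.425 CPM. The number of share comparisons with an adjusted p under 0.1 was 9 of 18, and 4 to 11 with each mouse left out (11 without WT replicate 1), where all differences between genotypes lost their call in at least 1 case. The share of *Pla2g4b* (cytokines minus basal) was -0.0182 to 0.0542 points with each mouse left out, and that of *Pla2g4c* (KO minus WT) -0.0108 to 0.0876 points under basal conditions and -0.0722 to 0.00615 points with cytokines, with adjusted p over 0.7 wherever the sign turned. The cause of these shifts was not tested. Counts per library were 1 to 81 for *Pla2g4b* and 0 to 34 for *Pla2g4c*, against at least 68 for the other members.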
